A study of Rattus norvegicus with 12 samples.

Results

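The comparison described here pools the 8 rat libraries that had been kept with either human amniotic cell type and sets them against the 4 vehicle libraries, out of 12 in all. The libraries were chosen by their labels: co-culture with human amniotic epithelial cells (hAEC, sample numbers 3, 4, 11 and 12), co-culture with human amniotic mesenchymal stromal cells (hAMSC, sample numbers 7, 8, 15 and 16), and vehicle (sample numbers 17, 18, 19 and 20). All 12 came from primary cells that the labels call hepatic stellate cells, separated on a gradient from the livers of rats with cirrhosis induced by inhaled carbon tetrachloride (CCl4), so the vehicle libraries share the disease model. Co-culture ran for 24 h across Transwell inserts, which let soluble products through and hold cells back, with 15000 viable amniotic cells. The sources used here give no strain, age or number of rats, and do not say what the vehicle was.

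The model carried the library set as a block, and this block was read from the measurements: the first principal component of the 2000 most variable genes held 73.5% of their variance and parted the libraries into set A (hAEC 3 and 4, hAMSC 7 and 8, vehicle 17 and 18) and set B (hAEC 11 and 12, hAMSC 15 and 16, vehicle 19 and 20). Each set therefore holds 4 co-cultured and 2 vehicle libraries. The labels do not name the sets, and what they stand for was not tested. The biological coefficient of variation was 9.99% with the set in the model and 37.1% without it. Total counts ran from 27382724 to 34922211 per library. Within set B, the library hAMSC 15 had the lowest first component score, 45.4, and hAMSC 16 the next, 48.7. The hAEC libraries of that set were at 53.1 and 54.8 and its vehicle libraries at 53.9 and 54.0. Summed endothelial markers were highest in hAMSC 15, at 568 CPM, and next in hAMSC 16, at 497 CPM. The hAEC and vehicle libraries of set B were at 404 to 428 CPM. CPM, counts scaled to a common library size, were computed on library sizes adjusted by the trimmed mean of M-values (TMM).

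The defining genes go against the label. Summed over 16 macrophage markers, levels were 9676 to 21962 CPM in the co-cultured libraries and 9375 to 22427 CPM in the vehicle libraries. The 12 stellate cell markers summed to 18.8 to 81.3 CPM with co-culture and 21.7 to 99.6 CPM with vehicle. Lrat, the enzyme behind the retinyl ester store of stellate cells, averaged 0.195 ± 0.127 CPM in the co-cultured libraries (SD, n = 8) and 0.133 ± 0.155 CPM in the vehicle libraries (SD, n = 4), and did not have enough counts to be tested. Summed endothelial markers were at 404 to 828 CPM with co-culture and 418 to 813 CPM with vehicle, hepatocyte markers at 554 to 820 CPM with co-culture and 520 to 688 CPM with vehicle, and epithelial markers at 1702 to 2559 CPM with co-culture and 1736 to 2365 CPM with vehicle. A single gene carried nearly all of the hepatocyte and epithelial sums, Tf in the hepatocyte list (546 to 815 CPM with co-culture and 509 to 684 CPM with vehicle) and Spp1 in the epithelial list (1683 to 2529 CPM with co-culture and 1716 to 2340 CPM with vehicle), and macrophages can express both. The hepatocyte product Alb was at 0.891 to 6.13 CPM with co-culture and 2.4 to 8.08 CPM with vehicle, and the epithelial keratin Krt8 at 1.03 to 11.6 CPM with co-culture and 3.32 to 9.54 CPM with vehicle. Lymphocyte, neutrophil, mesothelial and erythroid markers each summed to at most 48.1 CPM with co-culture and 45.2 CPM with vehicle. Among the markers of the 9 lists that are in the deposited data, none was at 0 in all libraries. Some listed macrophage, lymphocyte and erythroid markers are absent from those data. The cells are therefore called the rat cells below. In such bulk RNA, fewer cells of a type and less RNA per cell cannot be told apart.

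Amniotic epithelial and mesenchymal stromal cells are taken from the fetal membranes and are studied for the soluble factors they release, which act on macrophages and on fibrosis. Macrophages adjust their membranes through the sterol pathway: when sterol in the endoplasmic reticulum is low, SREBP factors enter the nucleus and switch on the enzymes that make cholesterol. NRF2 is the factor that switches on quinone reductases, glutathione synthesis and haem breakdown under oxidative stress, and BACH1 represses many of the same genes until haem binds it.

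No gene passed the pooled comparison. Of 13539 genes tested with edgeR's quasi-likelihood test and Benjamini-Hochberg adjustment, 0 had an adjusted p under 0.05 (0%), and the smallest adjusted p was 0.258. At an unadjusted p under 0.05, 600 genes were higher (4.43%) and 461 were lower (3.40%) with co-culture, 1061 together, where chance alone gives 677. The same test without hAMSC 15 called 39 of 13668 genes (0.285%), 34 higher and 5 lower with co-culture. Leaving out any of the other 11 libraries called 0. DESeq2 called 26 of 10124 genes (0.257%), 17 higher and 9 lower, limma voom called 0 with 1143 genes at an unadjusted p under 0.05, and the mean of both cell types in a model of 3 groups called 6 (0.0443%). The labels do not say whether libraries of a group came from separate animals or cultures, and the p-values cover only the variation among the 12 libraries, part or all of which may be technical.

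The response was small in every gene that led the comparison. In each direction, the 10 genes with the smallest p and a mean of at least 5 CPM, none of which passed, differed by 8.55% to 26.0% between co-culture and vehicle, with adjusted p of 0.258 to 0.386. Of these 20 genes, 18 were called by DESeq2, 11 by edgeR without hAMSC 15, and 11 by both. A gene was counted as separated when, within each library set, all 4 co-cultured libraries lay on the same side of both vehicle libraries. By this count 94 genes were separated upward (0.694%) and 109 downward (0.805%), and 19 of the 20 leading genes were among them, which the choice by smallest p favours.

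**Figure D1:**
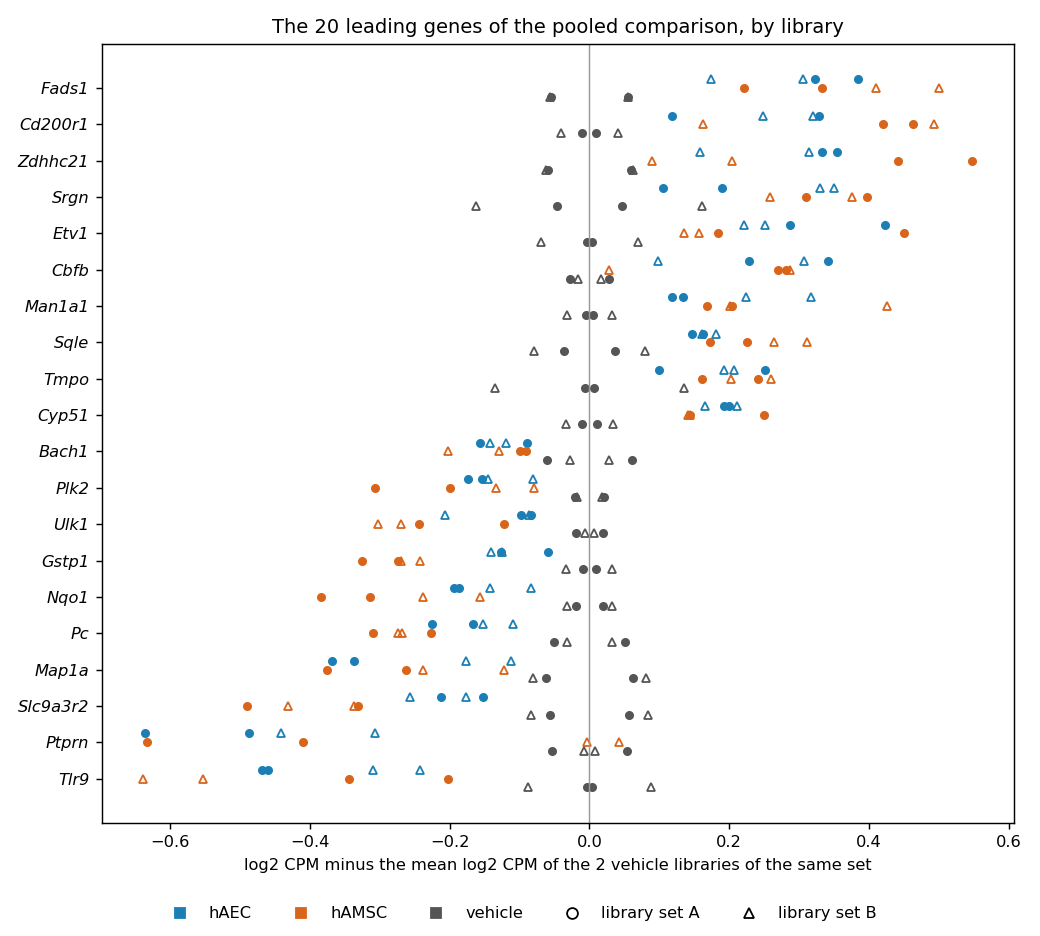
The 20 leading genes, 10 higher and 10 lower with co-culture, are shown by library as log2 CPM minus the mean log2 CPM of the 2 vehicle libraries of the same set (x axis, log2 units), with hAEC, hAMSC and vehicle in separate colours and the sets by symbol. Co-cultured libraries lie on a single side of the vehicle libraries of their set in 19 of the 20 genes; in Ptprn the 2 hAMSC libraries of set B lie among and above the vehicle libraries.

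Genes of sterol synthesis and uptake had the highest share of members in a single direction among the 18 process lists. Of 25 listed genes 24 were tested, and none passed. Of these, 22 were higher with co-culture (91.7%, against 48.7% of all genes tested). At an unadjusted p under 0.05, 12 of the 24 were higher and none was lower, against 4.43% and 3.40% of all genes. Their median log2 fold change was 0.10, against -0.003 over all genes tested. Separated upward were 6 of them, or 25% of the tested members, against 0.694% of all genes, among them Cyp51, Sqle and Msmo1. Without hAMSC 15 the median of the sterol list was 0.08. The list was chosen with earlier results of these data known, so its count is a description.

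Several of these genes share a short promoter motif, so their start regions are shown before their values. The windows run from 250 bases before to 50 bases after the RefSeq transcription start on build GRCr8. Capitals mark each CCAAT, the binding motif of the factor NF-Y, on either strand (read ATTGG on the other).
Hmgcs1, chr2:53382054-53382353, plus strand: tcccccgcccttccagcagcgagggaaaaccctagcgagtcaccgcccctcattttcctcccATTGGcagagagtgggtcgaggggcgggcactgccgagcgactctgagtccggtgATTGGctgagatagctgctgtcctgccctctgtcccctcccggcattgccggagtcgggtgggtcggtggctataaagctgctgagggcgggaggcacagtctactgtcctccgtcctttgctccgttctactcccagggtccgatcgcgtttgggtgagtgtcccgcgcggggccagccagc
Msmo1, chr16:29746863-29747162, plus strand: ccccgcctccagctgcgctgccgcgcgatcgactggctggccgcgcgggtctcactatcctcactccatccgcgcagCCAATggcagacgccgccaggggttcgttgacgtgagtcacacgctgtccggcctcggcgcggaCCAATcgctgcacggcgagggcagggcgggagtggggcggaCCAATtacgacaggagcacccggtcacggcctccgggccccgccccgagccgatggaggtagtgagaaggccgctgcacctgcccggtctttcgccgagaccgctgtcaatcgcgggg
Sc5d, chr8:51538228-51538527, minus strand: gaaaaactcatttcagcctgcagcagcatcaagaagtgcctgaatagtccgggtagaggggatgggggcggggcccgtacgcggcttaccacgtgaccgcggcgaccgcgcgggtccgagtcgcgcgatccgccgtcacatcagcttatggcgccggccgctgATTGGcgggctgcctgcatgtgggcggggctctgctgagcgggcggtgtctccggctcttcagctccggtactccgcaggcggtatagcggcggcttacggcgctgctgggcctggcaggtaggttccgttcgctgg
Insig1, chr4:8057720-8058019, minus strand: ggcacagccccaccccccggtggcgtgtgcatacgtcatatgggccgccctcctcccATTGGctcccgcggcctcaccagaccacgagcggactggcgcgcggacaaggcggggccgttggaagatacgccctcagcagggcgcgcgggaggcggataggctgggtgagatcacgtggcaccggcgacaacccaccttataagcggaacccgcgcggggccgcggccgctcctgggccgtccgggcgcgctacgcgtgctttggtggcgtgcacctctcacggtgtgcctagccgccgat

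Of the 24 tested sterol genes, 17 had a window in the RefSeq table. CCAAT was found in 14 of the 17 (82.4%), against 37.5% of all 33469 windows. The sterol regulatory element, searched as TCACNCCAC on both strands, was found in 0 of the 17 and in 1.12% of all windows. A match is a description of the letters in the window, not of binding.

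Cyp51, the lanosterol demethylase of the pathway, had the smallest p of all genes. In set A it was at 55.4 and 55.1 CPM with hAEC and 57.3 and 53.2 CPM with hAMSC, against 48.6 and 47.8 CPM with vehicle. In set B it was at 125 and 121 CPM with hAEC and 119 in both hAMSC libraries, against 105 and 110 CPM with vehicle. All co-cultured libraries were above both vehicle libraries of their set. The pooled difference was 0.18 ± 0.03 (log2, SE), or 13.4%, with an edgeR adjusted p of 0.258. Without hAMSC 15 it was 0.19 with an adjusted p of 0.0319.

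Sqle, the squalene epoxidase of an earlier stage, followed the same order. Its set A values were 52.1 and 52.7 CPM with hAEC and 55.0 and 53.1 CPM with hAMSC, against 48.3 and 45.9 CPM with vehicle. Its set B values were 69.6 and 70.5 CPM with hAEC and 77.2 and 74.8 CPM with hAMSC, against 65.8 and 58.9 CPM with vehicle. Again no co-cultured library overlapped the vehicle libraries of its set. The pooled log2 difference was 0.20 ± 0.04 (SE), edgeR adjusted p 0.258, and 0.0498 without hAMSC 15.

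Msmo1, a methylsterol oxidase, was at 30.2 to 34.5 CPM with co-culture and at 28.3 and 30.04 CPM with vehicle in set A, and at 53.2 to 59.8 CPM with co-culture and at 46.8 and 51.3 CPM with vehicle in set B. The groups did not overlap within a set, and the pooled log2 difference was 0.18 ± 0.05 (SE, edgeR adjusted p 0.386). Insig1, which holds the SREBP complex in the endoplasmic reticulum, differed by 0.15 ± 0.04 (edgeR adjusted p 0.496), with 0.07 in set A and 0.23 in set B. In set A its groups overlapped, since an hAEC library at 77.3 CPM was below both vehicle libraries, at 78.3 and 79.7 CPM. Hmgcs1, the synthase that starts the mevalonate branch, differed by 0.10 ± 0.04 (edgeR adjusted p 0.563) and was not separated either, with hAMSC at 0.01 in set A and 0.13 in set B.

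Other members were named after their values had been seen. Idi1, an isomerase of the isoprenoid stage, was higher by 0.24, Sc5d, a sterol desaturase, by 0.17, and Stard4, a sterol carrier, by 0.16 (log2). Idi1 was not separated, because hAMSC 15, at 26.0 CPM, lay below both vehicle libraries of its set, at 27.1 and 27.8 CPM. The members on the lower side were Mvk, mevalonate kinase, at -0.06 and Dhcr7, the last reductase of the pathway, at -0.03.

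**Figure D2:**
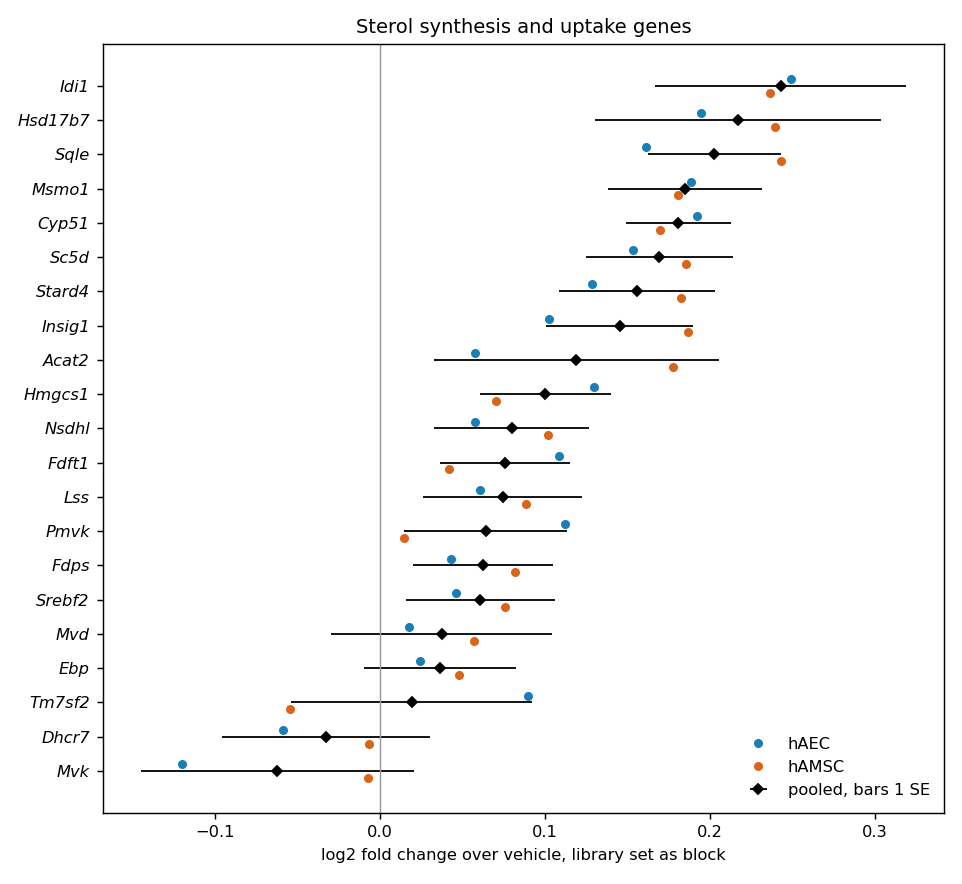
Of the tested sterol genes, 21 are shown with their log2 fold change over vehicle (x axis, library set as block): circles for hAEC and for hAMSC, diamonds for both pooled with bars of 1 SE. Of the 21 pooled values, 19 lie above 0, between 0.02 and 0.24.

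Most sterol genes were higher in each set, by amounts that differed between the sets. The list's median log2 fold change over vehicle was 0.11 with hAEC and 0.12 with hAMSC, 2 values that share the vehicle libraries. In set A the median was 0.10 with 21 of 24 genes higher (48.9% of all genes were), and in set B it was 0.14 with 23 of 24 higher (49.4% of all genes). The set B median lay farther from the pooled one than the SD of the list's median over the 8 co-cultured libraries (0.031). The sets share no library. Over all 13539 genes, the log2 fold changes of set B and set A had a Pearson's r across genes of -0.063 and a Spearman's rho of -0.0029, given as a description since genes are not independent replicates. Of the 584 genes at an unadjusted p under 0.01 in set A, 322 had the same sign in set B (55.1%), and of the 152 such genes of set B, 67 had the same sign in set A (44.1%), against 50.6% of all genes.

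**Figure D3:**
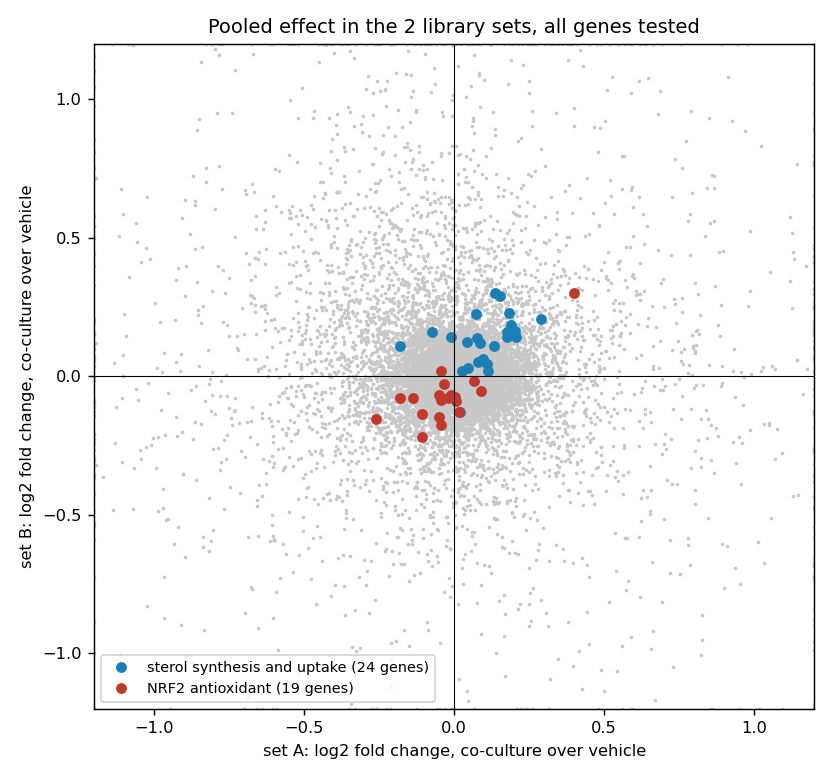
Each point is a gene, with the log2 fold change of co-culture over vehicle in set A on the x axis and in set B on the y axis; the 24 sterol genes and the 19 NRF2 genes are coloured, and 297 genes beyond 1.2 on either axis are drawn at the edge. The cloud of all genes has no slope (r = -0.063), while most sterol genes lie in the upper right and most NRF2 genes in the lower left.

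Other lipid genes were mixed. Of 18 tested genes of fatty acid synthesis and desaturation, 14 were higher, with a median of 0.02, and 1 was separated upward, Fads1, a desaturase that makes polyunsaturated fatty acids. Its start region holds 1 CCAAT, in capitals, in the same kind of window.
Fads1, chr1:216252442-216252741, plus strand: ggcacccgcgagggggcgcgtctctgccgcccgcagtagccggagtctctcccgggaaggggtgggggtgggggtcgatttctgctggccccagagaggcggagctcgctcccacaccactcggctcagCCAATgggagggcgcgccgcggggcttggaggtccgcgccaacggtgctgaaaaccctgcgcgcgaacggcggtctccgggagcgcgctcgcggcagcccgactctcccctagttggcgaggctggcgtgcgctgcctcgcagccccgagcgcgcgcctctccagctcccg

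Fads1 was at 18.2 and 18.98 CPM with hAEC and 16.96 and 18.3 CPM with hAMSC in set A, against 15.1 and 14.0 CPM with vehicle. In set B it was at 31.3 and 28.6 CPM with hAEC and 35.8 and 33.7 CPM with hAMSC, against 26.3 and 24.4 CPM with vehicle. Every co-cultured library was above the vehicle libraries of its set, and the pooled log2 difference was 0.33 ± 0.06 (SE), or 26.0%, edgeR adjusted p 0.258. Of 16 tested genes of cholesterol efflux and LXR targets, 8 were higher and 8 lower. Lpl, the lipoprotein lipase, was separated upward: 607 to 765 CPM with co-culture and 564 and 592 CPM with vehicle in set A, and 369 to 427 CPM with co-culture and 283 and 289 CPM with vehicle in set B. Its log2 difference was 0.32 ± 0.07 (SE, edgeR adjusted p 0.386), and it was called in set B alone (0.46, adjusted p 0.0144). Apoe, the apolipoprotein of cholesterol export, was lower by the pooled value of -0.19 ± 0.06. Of 31 lysosomal genes, 19 were higher, with a median of 0.01.

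**Figure D4:**
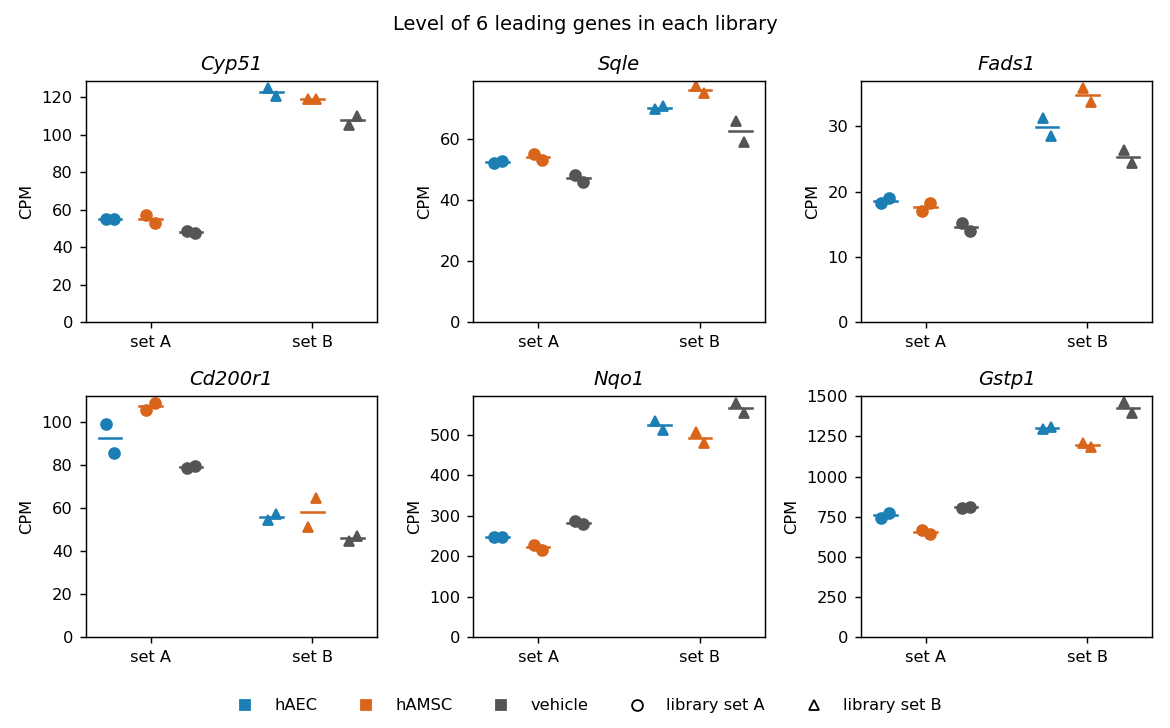
Levels of 6 leading genes in CPM (y axis from 0) in each library, with hAEC, hAMSC and vehicle from left to right within each library set and bars at the mean of 2 libraries. Cyp51, Sqle, Fads1 and Cd200r1 are higher with both cell types than with vehicle in both sets, and Nqo1 and Gstp1 are lower; Cyp51 is at 119 to 125 CPM in co-cultured set B and at 53.2 to 57.3 CPM in co-cultured set A.

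Genes of the NRF2 programme were mostly lower. Of 19 tested genes, none passed, and 16 were lower and 3 higher with co-culture (15.8% higher, against 48.7% of all genes tested). At an unadjusted p under 0.05, 6 were lower and 1 higher, against 3.40% and 4.43% of all genes. Nqo1, Gclm and Hmox1 were separated downward (15.8% of the tested members, against 0.805% of all genes). The median was -0.06, also without hAMSC 15, with -0.05 in set A and -0.08 in set B. It was -0.04 with hAEC and -0.08 with hAMSC, over the same vehicle libraries. Nqo1, a quinone reductase, was at 247 and 248 CPM with hAEC and 227 and 217 CPM with hAMSC, against 286 and 279 CPM with vehicle, in set A. In set B it was at 533 and 512 CPM with hAEC and 507 and 479 CPM with hAMSC, against 578 and 553 CPM with vehicle. The co-cultured libraries were below the vehicle libraries in both sets, with a pooled log2 difference of -0.21 ± 0.04 (SE, edgeR adjusted p 0.258, and 0.0463 without hAMSC 15).

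Hmox1, the haem oxygenase, was at 2183 to 2627 CPM with co-culture and at 2675 and 2738 CPM with vehicle in set A, and at 2396 to 2582 CPM with co-culture and at 2618 and 2639 CPM with vehicle in set B. The groups did not overlap within a set, and the pooled log2 difference was -0.13 ± 0.05 (SE, edgeR adjusted p 0.533). Hmox1 differed from vehicle by -0.07 with hAEC and -0.20 with hAMSC (edgeR adjusted p between the cell types 0.466). Gclm, the modifier subunit of glutathione synthesis, was lower by the value -0.12 ± 0.04, with -0.08 for hAEC and -0.17 for hAMSC. Slc7a11, the cystine transporter, went the other way, at 0.35 ± 0.12 on the log2 scale (edgeR adjusted p 0.533).

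Gstp1, a glutathione transferase outside that list, was among the leading genes. Its window holds 1 match to the antioxidant response element, searched as TGACNNNGC on both strands and shown in capitals. That motif was found in 5 of 17 windows of NRF2 genes (29.4%) and in 12.1% of all windows.
Gstp1, chr1:210769656-210769955, minus strand: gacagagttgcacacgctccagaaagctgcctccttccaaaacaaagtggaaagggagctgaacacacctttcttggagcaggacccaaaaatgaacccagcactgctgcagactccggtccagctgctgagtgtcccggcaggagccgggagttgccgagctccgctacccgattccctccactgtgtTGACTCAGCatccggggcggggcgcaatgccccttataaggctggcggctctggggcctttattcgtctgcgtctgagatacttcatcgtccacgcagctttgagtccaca

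Gstp1 was at 741 and 775 CPM with hAEC and 668 and 645 CPM with hAMSC, against 803 and 813 CPM with vehicle, in set A. In set B it was at 1295 and 1310 CPM with hAEC and 1207 and 1184 CPM with hAMSC, against 1461 and 1396 CPM with vehicle. All co-cultured libraries were below their vehicle libraries, and those with hAMSC were lowest. The pooled log2 difference was -0.19 ± 0.05 (SE, edgeR adjusted p 0.357).

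In haem and iron handling, 14 of 21 tested genes were lower. Bach1, the haem-sensing repressor, differed by -0.13 ± 0.03, Slc48a1, a haem transporter of the lysosome, by -0.14 ± 0.04, and Blvrb, a biliverdin reductase, by -0.10 ± 0.04 (log2, SE). Bach1 differed by -0.13 with each cell type. Slc48a1 differed by -0.08 with hAEC and -0.20 with hAMSC, and Blvrb by -0.06 with hAEC and -0.15 with hAMSC. Cd163, the receptor for haemoglobin bound to haptoglobin, was higher: 109 and 112 CPM with hAEC and 123 and 178 CPM with hAMSC, against 108 and 99.1 CPM with vehicle in set A. In set B it was at 98.7 and 96.0 CPM with hAEC and 138 and 135 CPM with hAMSC, against 85.5 and 85.1 CPM with vehicle. The groups did not overlap within a set, though the nearest hAEC and vehicle libraries of set A were close, and the hAMSC libraries were well above the hAEC libraries, and the pooled edgeR adjusted p was 0.58.

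The remaining leading genes came from other lists or from none. Cd200r1, an inhibitory receptor of myeloid cells, was at 85.8 to 109 CPM with co-culture and at 78.5 and 79.6 CPM with vehicle in set A, and at 51.4 to 64.7 CPM with co-culture and at 44.7 and 47.3 CPM with vehicle in set B. Its groups did not overlap, with a log2 difference of 0.32 ± 0.07 (SE, edgeR adjusted p 0.309). Man1a1, a Golgi mannosidase that trims N-glycans, was higher by 0.22 ± 0.04, and Cbfb, the partner subunit of RUNX factors, by 0.23 ± 0.05. Zdhhc21, a palmitoyltransferase, Etv1, an ETS factor, Srgn, the granule proteoglycan serglycin, and Tmpo, a protein of the nuclear lamina, were higher by 0.31, 0.26, 0.28 and 0.20.

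Pc, pyruvate carboxylase, was at 31.4 to 34.7 CPM with co-culture and at 37.6 and 40.3 CPM with vehicle in set A, and at 153 to 172 CPM with co-culture and at 181 and 189 CPM with vehicle in set B. It was below vehicle in all 8 co-cultured libraries, by a log2 difference of -0.21 ± 0.04 (SE, edgeR adjusted p 0.258). Slc9a3r2, a scaffold of membrane transporters, differed by -0.30 ± 0.06, Map1a, a microtubule protein, by -0.25 ± 0.05, and Plk2, a polo-like kinase, by -0.16 ± 0.04. Ulk1, the kinase that starts autophagy, differed by -0.18, and Tlr9, the receptor for unmethylated DNA, by -0.40 at a level of 1.07 to 10.7 CPM with co-culture and 1.48 to 13.4 CPM with vehicle.

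Ptprn, a protein of secretory vesicles, was the leading gene whose groups overlapped. In set A it was at 26.4 and 29.3 CPM with hAEC and 26.4 and 30.9 CPM with hAMSC, against 39.5 and 42.6 CPM with vehicle. In set B it was at 2.87 and 3.15 CPM with hAEC and 4.01 and 3.89 CPM with hAMSC, against 3.92 and 3.87 CPM with vehicle. The hAMSC libraries of set B thus lay at or above the vehicle level.

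The cell types were then set side by side to see which differences appeared with both. Against the same vehicle libraries, 0 genes passed with hAEC (0%) and 32 passed with hAMSC (0.236%), 21 higher and 11 lower. Without hAMSC 15 the second count was 153, and leaving out other libraries gave 8 to 56. That difference in counts is no test between the cell types. Tested directly, 3 genes differed between hAEC and hAMSC (0.0222%), Fcgr2b, Pcsk1 and Vcan, all lower with hAEC. This count was 0 without hAMSC 15 and 50 without hAMSC 7. Among the 20 leading genes, 9 passed with hAMSC alone and 0 with hAEC alone, and in 16 the difference from vehicle was larger with hAMSC. In none of the 20 did the difference between hAEC and hAMSC pass (lowest edgeR adjusted p 0.107, Gstp1), and 5 had an unadjusted p under 0.05. Choice by the pooled p selects against genes that differ between the cell types, so this count does not show that they act alike. Fads1 differed from vehicle by 0.30 with hAEC and 0.37 with hAMSC, Cyp51 by 0.19 with hAEC and 0.17 with hAMSC, and Gstp1 by -0.11 with hAEC and -0.28 with hAMSC (log2).

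The sets were also tested against each other. No gene had a pooled effect that differed between set B and set A at an adjusted p under 0.05 (0%; DESeq2 called 32), and 1107 had an unadjusted p under 0.05. Set A alone called 22 genes (0.163%) and set B alone 11 (0.0819%). Adm, the vasodilator adrenomedullin, called in set A, was at 0.38 in set B and -0.49 in set A, and Ccr7, a chemokine receptor called in set B, was at 0.75 in set B and -0.42 in set A. Lsp1, a leukocyte actin-binding protein called in set B, was at 0.50 in set B and -0.30 in set A. These genes were chosen from the fits within a set after their values had been seen, and each has opposite signs in the sets. Other called genes kept their sign. Cbfb, called in set A, was at 0.28 in set A and 0.18 in set B. Lpl, called in set B, was at 0.18 in set A and 0.46 in set B.

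Of 26 tested interferon genes, 19 were higher in set A, with a median of 0.08, and 7 were higher in set B, with a median of -0.11. Rsad2, the antiviral protein viperin, differed by 0.01 in set A and -0.82 in set B, and Mx1, an antiviral GTPase, by 0.15 in set A and -0.62 in set B. No member's difference between the sets passed, and the list as a whole was not tested. Both medians were within 0.126 of the pooled median of -0.04, the SD of the list's median over the 8 co-cultured libraries. That SD was taken over libraries of both sets. It includes any difference between the sets, so it cannot decide whether they differ. In the same fit of both sets together, the cholesterol efflux list had medians of 0.05 in set A and -0.06 in set B. In set B, Mx1 was at 93.5, 53.6, 61.4 and 65.2 CPM with co-culture and at 126 and 84.2 CPM with vehicle, so that the 2 vehicle libraries differed widely and the groups overlapped. Of 13 tested endothelial markers, 1 was higher in set A and 12 were higher in set B, where hAMSC 15 had the highest sum. Their median was -0.17 with hAEC and 0.17 with hAMSC over the same vehicle libraries. The part of these cells in the other results was not tested.

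**Figure D5:**
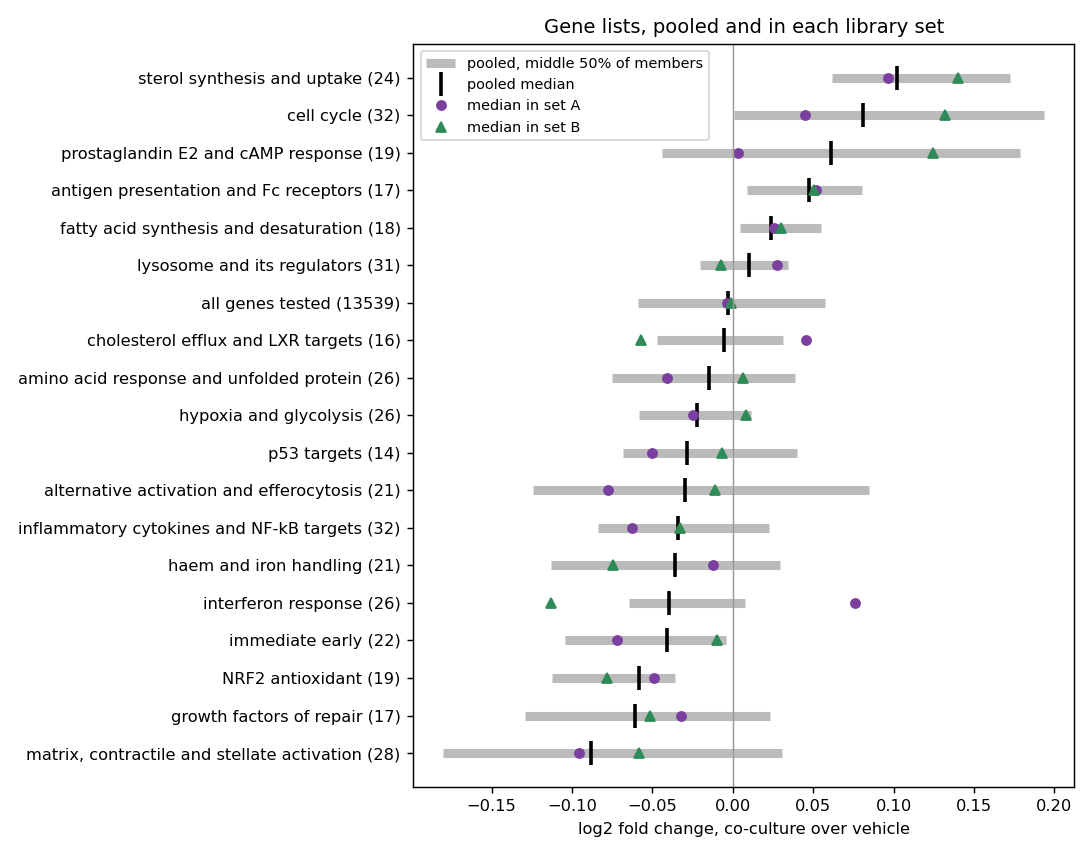
For each of 18 gene lists and for all genes tested, the black mark is the median pooled log2 fold change of co-culture over vehicle (x axis), the grey bar spans the middle 50% of members, and the circle and triangle are the medians in set A and set B. The sterol list has the highest median (0.10, with 0.10 in set A and 0.14 in set B), the matrix list the lowest (-0.09), and the interferon list has medians of opposite sign (0.08 in set A and -0.11 in set B).

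Cell cycle genes were higher on balance. Of 32 tested, 24 were higher in the pooled comparison, 18 of the 32 in set A and 27 of the 32 in set B, and the median over the 32 was 0.08. Top2a, the topoisomerase of dividing cells, was separated upward: 3.12 to 4.79 CPM with co-culture and 2.52 and 2.89 CPM with vehicle in set A, and 11.9 to 16.04 CPM with co-culture and 10.9 and 11.3 CPM with vehicle in set B. Its log2 difference was 0.40 ± 0.11 (SE, edgeR adjusted p 0.496). Ccnd1, cyclin D1, was higher by 0.27 ± 0.09, with 0.09 in set A and 0.46 in set B.

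Inflammatory genes were mostly lower by small amounts. Of 32 tested cytokine and NF-kB genes, 22 were lower, with a median of -0.03. Cxcl2, a neutrophil chemokine, differed by -0.23 ± 0.07, Ptgs2, the inducible cyclooxygenase, by -0.41 ± 0.17, and Sod2, the mitochondrial superoxide dismutase, by 0.15 ± 0.06. Sod2 differed from vehicle by 0.05 with hAEC and 0.24 with hAMSC (edgeR adjusted p between the cell types 0.21). Il1b, the cytokine interleukin-1 beta, was at 635 to 723 CPM with co-culture and 679 and 692 CPM with vehicle in set A, and at 39.97 to 48.2 CPM with co-culture and 43.2 and 50.5 CPM with vehicle in set B. Its groups overlapped in both sets, and it differed by -0.03 ± 0.05. Of 21 genes of alternative activation, 8 were higher and 13 lower, with a median of -0.03 (-0.05 with hAEC and -0.08 with hAMSC). At an unadjusted p under 0.05, 4 were higher and 2 lower, against 4.43% and 3.40% of all genes. Msr1, a scavenger receptor, at 0.17 ± 0.04, Clec10a, a lectin, at 0.29 ± 0.09, and Mrc1, the mannose receptor, at 0.10 ± 0.03 were among the 4 higher. They were named by smallest p, and the 2 lower genes are not named here. Mrc1 was separated, but Msr1 and Clec10a were not. In set A, Msr1 was at 1202 and 1218 CPM with hAEC, against 1221 and 1111 CPM with vehicle. Clec10a was at 19.2 and 24.2 CPM with hAEC there, against 20.5 and 21.5 CPM with vehicle. Of 17 genes of antigen presentation and Fc receptors 13 were higher, among them Fcgr1a, the high-affinity Fc receptor, at 0.15 ± 0.04.

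Prostaglandin E2 and cAMP response genes had 12 of 19 higher, led by the nuclear receptor Nr4a2 at 0.42 ± 0.11, with 0.16 in set A and 0.67 in set B. Of 22 immediate early genes 17 were lower in the pooled comparison, while 3 were higher in set A and 11 in set B. Of 26 hypoxia and glycolysis genes 17 were lower in the pooled comparison, while 6 were higher in set A and 15 in set B. The set B median of the hypoxia list was 0.008. Over all genes tested, 48.7% were higher in the pooled comparison. Aldoa, a glycolytic aldolase, was separated downward at -0.11 ± 0.03. The amino acid and unfolded protein list had 12 of 26 higher, the p53 list 5 of 14 and the growth factor list 7 of 17. Vegfa, the vascular growth factor, differed by -0.26 ± 0.09.

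Matrix and contractile genes are a usual readout of stellate cell activation, but the markers above go against stellate cells, so they are not read that way here. Their median level was 4.38 CPM. Some were well above it, such as Timp2 at 202 to 383 CPM with co-culture and 224 to 387 CPM with vehicle. Of 28 tested members, 19 were lower with co-culture, with a median log2 fold change of -0.09, none was separated and none passed. Acta2, the smooth muscle actin, was at 2.46 and 2.33 CPM with hAEC and 0.802 and 0.892 CPM with hAMSC, against 0.939 and 1.003 CPM with vehicle, in set A. In set B it was at 3.0 and 2.42 CPM with hAEC and 1.42 and 2.53 CPM with hAMSC, against 2.40 and 2.38 CPM with vehicle. In set A the hAEC libraries were above and the hAMSC libraries below vehicle, while in set B the groups overlapped. Over the same vehicle libraries the log2 difference was 0.73 with hAEC and -0.25 with hAMSC, and neither these nor the difference between the cell types passed (edgeR adjusted p 0.86, 0.806 and 0.239). The pooled log2 difference was 0.31 ± 0.32 (SE, edgeR adjusted p 0.839). Col1a1 differed by -0.31 ± 0.33, Col3a1, at 0.944 to 1.83 CPM with co-culture and 1.003 to 2.67 CPM with vehicle, by -0.52 ± 0.23, Tgfbi, a matrix protein induced by TGF-beta, by -0.21 ± 0.06, and Timp1, an inhibitor of matrix proteases, by -0.16 ± 0.07. The Tgfbi difference was -0.08 in set A and -0.30 in set B.

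The genes called without hAMSC 15 were not the list genes alone. Leaving out provisional identifiers, the 4 genes of smallest p there, chosen after their values had been seen, were C1galt1, a Golgi galactosyltransferase, at 0.39 ± 0.05, Ppp1cb, a phosphatase subunit, at 0.35 ± 0.05, Pank3, a kinase of coenzyme A synthesis, at 0.27 ± 0.04, and Rps18l1 at -0.27 ± 0.04 (log2, SE; edgeR adjusted p 0.00884 to 0.0118). Rps18l1 is named as a ribosomal protein gene copy, and its reads may be shared with the parent gene. With all 12 libraries these genes differed by 0.33, 0.29, 0.23 and -0.23. All 4 were also called in set A alone. In the same order they differed by 0.42, 0.41, 0.33 and -0.34 in set A and by 0.25, 0.17, 0.14 and -0.12 in set B. Longer genes were slightly higher with co-culture: the median pooled log2 fold change was -0.02 in the shortest of 5 length classes of 11503 genes with a known length and 0.01 in the longest class. With that trend removed from each library, an alternative chosen after seeing the data, the pooled comparison again called 0 genes and the median of the sterol list was 0.10.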

How the data were processed

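RNA-seq of polyadenylated RNA (TruSeq Stranded mRNA, after RNAqueous-Micro extraction, per the labels' protocols) was measured in 12 libraries. The authors deposited expected counts per gene and library. The builds rn6 and Rnor_6.0 and the tools STAR, RSEM, limma, FastQC and Trim Galore are named, without role or version, per the submitters' processing notes. Of all values, 90.1% were whole (tolerance 0), and the rest were rounded. The files list 32623 genes, of which 11932 were at 0 in all libraries and 197 had no symbol. No pair of libraries agreed within counting noise (lowest chi-square per gene 6.23).

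Genes were kept by filterByExpr (13539), scaled by TMM (factors 0.973 to 1.03) and tested with edgeR 4.0.16 (robust quasi-likelihood, R 4.3.3) with library set and treatment as terms, leaving 9 residual degrees of freedom, and Benjamini-Hochberg adjustment at 0.05. Alternatives were limma 3.58.1 (voom), DESeq2 1.42.0, other scalings, filters and models, each set alone, and each library left out. The step was tested on simulated data. Values are CPM. Log2 fold changes are on the fitted scale. The log2 CPM behind the separated genes, the principal components and the spread of list medians have a prior count of 2. The log2 CPM plotted by library have no prior count.

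Genes named by rule were, in each direction, the 10 of smallest p (none passed) among those averaging 5 CPM or more and carrying no provisional symbol, up to 4 of smallest p per list, and Acta2, Col1a1, Lrat, Insig1, Hmgcs1, Cd163, Hmox1 and Il1b. The compared libraries and the lists were chosen with earlier results of these data known. Promoter windows and gene lengths came from RefSeq tables of build GRCr8, matched by symbol, and no coordinates were moved between builds. Genes whose reads overlap a close copy may have split counts. Some members of the sterol list are counted but not reported by name here.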

Additional observations from a re-analysis of the deposited data

Results flagged for a closer look

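Dixon's test was run 183 times, each on a named gene within a group of 4 libraries. In 1 of them, the gap of a library to its neighbour, over the range of the group, was above the 95% critical value. Each group mixed libraries of both sets, so where the sets differ such a gap can hardly arise. The usual share by chance, about 1 in 20, therefore does not apply, and the count does not show that outliers are few. The flagged case was Mx1, an antiviral GTPase, at 84.2 CPM in vehicle 20, against 122 to 126 CPM in the other 3 vehicle libraries, a gap of 0.909 of the range. Its set B values in the report rest on this library and on vehicle 19.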

How the results depend on the processing

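The pooled comparison called 0 genes under the other scalings, filters, voom, the fit that was not robust, the model with no set term and with the length trend removed. DESeq2 called 26, the model of 3 groups 6, set A alone 22 and set B alone 11. Leaving out a library gave 0 to 39, and the 39 came without hAMSC 15. For hAMSC against vehicle, no expression filter gave 52 and DESeq2 157, and leaving out a library gave 8 (vehicle 18) to 153 (hAMSC 15), with 56 without hAMSC 7, 34 without hAEC 12 and 9 to 21 without each of the others. For hAEC against vehicle, DESeq2 called 2. For hAEC against hAMSC, no filter gave 26, DESeq2 79, and leaving out a library 0 (hAEC 3, hAMSC 8, hAMSC 15) to 50 (hAMSC 7). For set B against set A, no filter gave 9, DESeq2 32, and leaving out a library 0 to 11 (hAMSC 8). The causes were not tested.

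Over named genes, 1452 settings kept direction and call, 39 gained a call and 5 turned direction: Acta2 was at -0.030 in set B alone, Kdr at -0.0052, Mx1 at 0.16 and Rsad2 at 0.013 in set A alone, and Il1b at 0.013 without vehicle 20, over a range of -0.062 to 0.013 as each library was left out. Of list medians, 445 stayed within their spread and 5 moved, all in a set alone. For cholesterol efflux they were 0.08 in set A and -0.06 in set B. For prostaglandin E2 they were 0.01 in set A and 0.12 in set B, and for the sterol list 0.14 in set B. These values come from fits of a set alone. The set medians given earlier come from a fit of both sets together and can differ from them. The spread was taken over libraries of both sets, so a median within it does not show that the sets agree. No paired analysis was possible because the groups share no replicate numbers. Genes at a few CPM, such as Acta2 and Col1a1, are the least precise here, and intervals cover the spread between 12 libraries only.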
